A study of Mus musculus with 15 samples.

Results

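The side populations of a pair of mouse brain tumour lines, 3447 and 4346, were compared on expression arrays, with 3 arrays per line. These 6 arrays are those titled as side population of line 3447 or of line 4346, out of 15 in the series. Both lines were tumorspheres, free-floating cultures from brain tumours of S100beta-verbB mice with a p53-/- or p53+/- genotype, which carry the viral oncogene verbB, an activated form of the EGF receptor, under the S100beta promoter. The labels do not say which p53 genotype belongs to which line. Each line was injected intracranially, with NOD.Cg-Prkdc<scid>Il2rg<tm1Wjl>/SzJ as the immune-deficient host strain, and spheres were grown again from the resulting tumours before sorting. The 3 arrays of a line are thus separate hosts of 1 original tumour. A p-value rests on the spread within groups, pooled over all 15 arrays, including those outside this comparison. It does not measure the spread between tumours. The other groups, used here for context, were non-side population cells of line 3447 and untransformed neurospheres of the same genotypes, sorted the same way. The study's text gives the neurospheres both as taken from 3 mice and as grown after injection, so their history is uncertain.

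The side population (SP) is the fraction of cells that keeps out a DNA-binding dye because ABC transporters, above all Abcg2, pump it out. It is used to enrich stem-like cells from cultures and tumours. Tumours driven by EGF receptor signalling in S100beta-expressing glia often carry features of oligodendrocyte progenitors.

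Of 11908 genes tested, 55 were higher and 142 lower in the SP of line 3447 than in that of line 4346 at a limma adjusted p below 0.05, which is 1.65% of all genes (0.462% higher and 1.19% lower). Among called genes the median log2 difference was -2.26 for those higher in line 4346 and 1.30 for those higher in line 3447, and 83 and 15 were past 4-fold. A gene was tested if it was above the array median in 3 arrays, so a gene high in 1 group could enter through that group alone. When 6 arrays were required, 30 of the 197 called genes were not tested, and 50 were called higher and 99 lower. The sizes of the changes in the 2 directions were not compared by a test. Over all genes the median was -0.04, and 5469 of 11908 (45.9%) were above 0. At an unadjusted p below 0.05 there were 1980 genes, and the 3 arrays of a line did not overlap those of the other in 2334 genes (19.6%, of which 1072 were higher and 1262 lower in line 3447). All 55 higher and all 142 lower called genes were among these, so a lack of overlap adds nothing to a call. When arrays were centred on their medians in place of quantile normalization the median of all genes shifted to -0.38 and the split became 23 higher and 344 lower, so the share of calls that were higher in line 3447 fell from 27.9% to 6.27%. The count also depended on single arrays. It was 122, 114 and 107 without 3447 SP array 1, 2 and 3, and 308 and 117 without 4346 SP array 2 and 3.

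**Figure D1:**
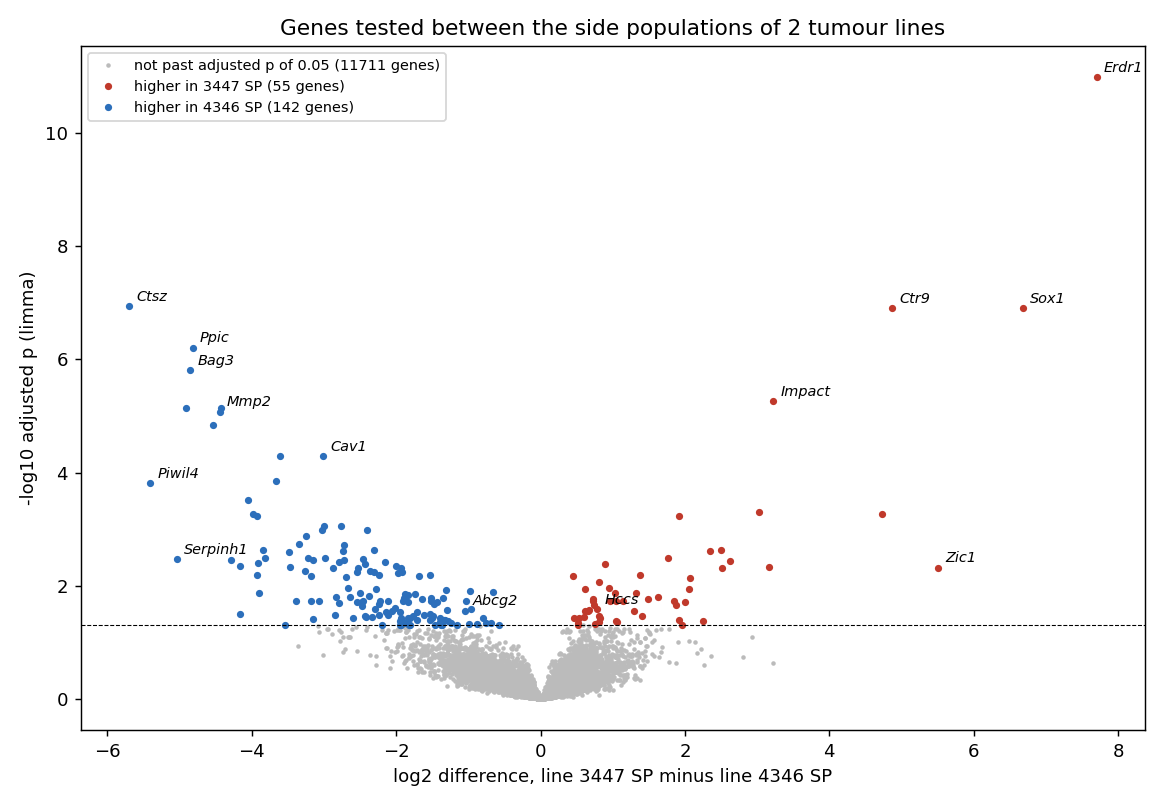
Log2 difference (3447 SP minus 4346 SP, x axis) against -log10 of the limma adjusted p (y axis) for the 11908 genes tested; each point is a gene and the dashed line marks an adjusted p of 0.05. The 142 genes higher in 4346 SP (blue) include 83 past 4-fold and the 55 higher in 3447 SP (red) include 15, and the single largest difference, 7.70, belongs to Erdr1.

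Among the 6 arrays, the median signal ran from 41.5 to 89.3, the highest being 3447 SP array 3. Array 3 of 4346 SP stood apart, since its actin probe sets at the 3' end read 5.30 times those at the 5' end (2.49 to 3.22 times on the other 5), and its Gapdh probe sets 2.00 times (1.33 to 1.51). Rank correlations were 0.966 to 0.972 within 3447 SP, 0.931 to 0.975 within 4346 SP and 0.897 to 0.963 between the lines. Without array 3 of both lines, 20 genes were higher and 47 lower. Markers of oligodendrocyte progenitors were present in both lines. Of 20 oligodendrocyte progenitor markers with a probe set, 17 lay above the array median on all 3447 SP arrays and 19 on all 4346 SP arrays. Of 22 microglial and macrophage markers only 1 and 2 did, of 18 endothelial markers 1 and 2, and of 17 lymphocyte and blood markers 0 in both lines.

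Transcription factors of the early nervous system were among the genes that stood highest in line 3447. Sox1, a SoxB1 factor of neural stem cells, had signals of 1419, 2528 and 2158 in 3447 SP and of 0.848, 1.03 and 7.21 in 4346 SP. Zic1, a zinc finger factor of the dorsal neural tube and cerebellum, had 997, 1156 and 1382 against 2.37, 5.29 and 19.14. Neither gene overlapped between the lines in any array, and both signals in line 4346 were at the bottom of the array's range. The log2 differences were 6.68 ± 0.42 (SE, adjusted p = 1.26e-07) for Sox1 and 5.51 ± 0.93 (adjusted p = 0.00479) for Zic1, on a scale of log2 of the normalized signal plus 16, which understates differences of genes with a low signal. The non-SP cells of line 3447, which are arrays outside this comparison, had 2529, 1722 and 1773 for Sox1 and 1415, 1175 and 1298 for Zic1. Neurosphere SP cells had Sox1 at 787, 1493 and 2748 and Zic1 at 115, 484 and 50.7, so Sox1 in line 3447 lay at about the neurosphere level and Zic1 above it. Another probe set of Sox1 had a mean below 4 in both lines, and another of Zic1 differed by 1.63. The Zic1 call was lost without array 3 of both lines (adjusted p = 0.0760).

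The sequences before the transcription start of Sox1, Zic1, Ctsz and Adgrl2 are shown because these genes differed strongly between the lines. Ctsz and Adgrl2 have the opposite pattern and are described further on. Each is the 250 bases upstream of the annotated start, from RefSeq on GRCm38.p6, read 5′ to 3′ on the gene's strand. The capitals mark CG dinucleotides, the sites at which mammalian promoters are methylated; methylation was not measured here.
Sox1 (chr8:12395269-12395518, + strand): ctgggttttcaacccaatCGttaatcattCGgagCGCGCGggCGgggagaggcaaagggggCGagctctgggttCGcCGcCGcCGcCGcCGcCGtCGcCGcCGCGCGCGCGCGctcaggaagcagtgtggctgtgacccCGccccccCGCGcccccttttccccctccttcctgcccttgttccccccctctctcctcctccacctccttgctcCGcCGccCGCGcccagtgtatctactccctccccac
Zic1 (chr9:91365769-91366018, - strand): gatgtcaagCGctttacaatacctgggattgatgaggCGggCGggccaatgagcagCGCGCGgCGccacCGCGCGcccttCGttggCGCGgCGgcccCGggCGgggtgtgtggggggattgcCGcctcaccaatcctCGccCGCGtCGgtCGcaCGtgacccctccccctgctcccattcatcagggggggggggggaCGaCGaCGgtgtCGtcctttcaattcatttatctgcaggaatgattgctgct
Ctsz (chr2:174439040-174439289, - strand): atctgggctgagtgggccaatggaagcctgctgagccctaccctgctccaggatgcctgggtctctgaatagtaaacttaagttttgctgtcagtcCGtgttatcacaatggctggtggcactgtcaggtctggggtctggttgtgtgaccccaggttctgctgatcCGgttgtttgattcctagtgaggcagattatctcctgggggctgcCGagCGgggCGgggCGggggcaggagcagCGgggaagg
Adgrl2 (chr3:148954636-148954885, - strand): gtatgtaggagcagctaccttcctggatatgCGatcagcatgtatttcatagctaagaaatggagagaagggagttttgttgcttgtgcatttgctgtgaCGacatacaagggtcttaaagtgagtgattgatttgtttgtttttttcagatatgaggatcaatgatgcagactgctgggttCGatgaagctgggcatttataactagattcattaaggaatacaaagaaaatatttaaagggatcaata
The windows of Sox1 and Zic1 held 29 and 27 CG, and those of Ctsz and Adgrl2 held 7 and 3. A window was at hand for 43 of the 55 genes higher in line 3447, with a median of 15.3 CG, and for 108 of the 142 lower genes, with a median of 10.8. Over the 9667 tested genes with a window the median was 16. Where a gene had several windows, their CG counts were averaged. Fewer than 5 CG were found for 6.98% of the higher genes with a window, 13.9% of the lower genes and 8.21% of all. These counts describe letters only and were not tested.

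Other developmental regulators were higher in line 3447 at smaller size. Lhx4, a LIM homeodomain factor of the pituitary and motor neurons, had 161, 99.98 and 242 against 3.71, 2.58 and 2.73 (log2 difference 3.02 ± 0.38, adjusted p = 0.000500). Gata2, a GATA factor of blood and of midbrain neurons, had 614, 849.8 and 1175 against 112, 325 and 252 (1.85 ± 0.38, adjusted p = 0.0186). The arrays of the lines did not overlap for either gene. Another probe set of Lhx4, with low signal, differed by 0.30, and another of Gata2 by 1.48. Rfx4, a regulator of cilia and of neural tube patterning, differed by 2.35 (its other probe set by -0.47), and Dmrta2, a factor of the cortical hem and neural progenitors, by 2.00. In neurosphere SP cells Rfx4 stood far above both lines, at 1407 to 3378 against 156 to 196 in 3447 SP and 2.94 to 24.5 in 4346 SP. Vax2os, an antisense transcript beside the retinal homeobox gene Vax2, differed by 2.05, and its other probe set by 0.26.

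Of 32 tested Hox and patterning genes, 1 was higher (Zic1), 1 was lower (Six3, a homeobox factor of the anterior forebrain) and 30 did not pass. Six3 had signals of 61.0, 53.1 and 18.1 in 3447 SP against 289, 228 and 338 in 4346 SP, a log2 difference of -2.60 ± 0.59 (adjusted p = 0.0368). The Six3 call was lost in 8 of 15 single leave-outs. The 2 other probe sets of Six3 differed by -1.73 and 0.21. Zic2 and Zic5, the relatives of Zic1, differed by 1.33 (adjusted p = 0.0730) and 1.26 (adjusted p = 0.0903) and did not pass. The list's median was -0.06, close to the -0.04 of all genes. Alx1, a homeobox factor of craniofacial mesenchyme that was not on the list, had 4.89, 12.9 and 26.8 in 3447 SP against 759.9, 434 and 764 in 4346 SP. Its log2 difference was -4.54 ± 0.43 (adjusted p = 1.45e-05), and neurosphere SP cells had 4.97, 37.3 and 23.5. Bcl11a, a zinc finger repressor of blood and cortical neurons, was lower in line 3447 by -4.16 ± 0.93, a call lost in 5 single leave-outs.

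The largest difference of all belonged to Erdr1, a gene at the pseudoautosomal end of the X chromosome that is known for erythroid differentiation and stress. It had 6952, 7811 and 6405 in 3447 SP and 12.3, 29.6 and 7.25 in 4346 SP, a log2 difference of 7.70 ± 0.24 (adjusted p = 1.04e-11). Neurosphere SP cells had 6313, 4361 and 5309.8, so the low level was that of line 4346. The gene's other probe set, at a mean of 70.6 against 5.82, differed by 1.48.

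Impact, an imprinted regulator of the amino acid stress kinase Gcn2, had 2247, 2097 and 1587 in 3447 SP against 205, 273 and 117 in 4346 SP (3.22 ± 0.27, adjusted p = 5.5e-06). Neurosphere SP cells lay nearer line 3447, at 1062 to 1287. Of 21 tested imprinted genes, Impact was higher, 2 were lower and 18 did not pass. The lower ones were Slc38a4, an amino acid transporter, at 117, 3.25 and 36.1 against 446, 636 and 381, and Peg12, a paternally expressed member of the Frat family, at 85.9, 111 and 29.4 against 446, 543 and 216. Their log2 differences were -3.47 ± 0.58 (adjusted p = 0.00458) and -2.47 ± 0.51 (adjusted p = 0.0190). Peg12 was also high in neurosphere SP cells, at 937 to 1568, and Slc38a4 was not, at 2.83 to 29.1.

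Ctr9, a subunit of the Paf1 complex that travels with RNA polymerase II, had 3717, 3588 and 4969 in 3447 SP against 108, 118 and 120.3 in 4346 SP (4.87 ± 0.31, adjusted p = 1.26e-07). The non-SP cells of line 3447 had 3843 to 4299 and neurosphere SP cells 101 to 252. The other 4 probe sets of Ctr9 differed by only 0.34 to 1.12, with means of 74.4 to 498 in 3447 SP, so the size rests on 1 probe set. Stat3, a transcription factor of cytokine signalling, likewise rests on 1 probe set, with a difference of 1.92 against -0.50 to 0.40 on the other 3, and lost its call in 10 single leave-outs.

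**Figure D2:**
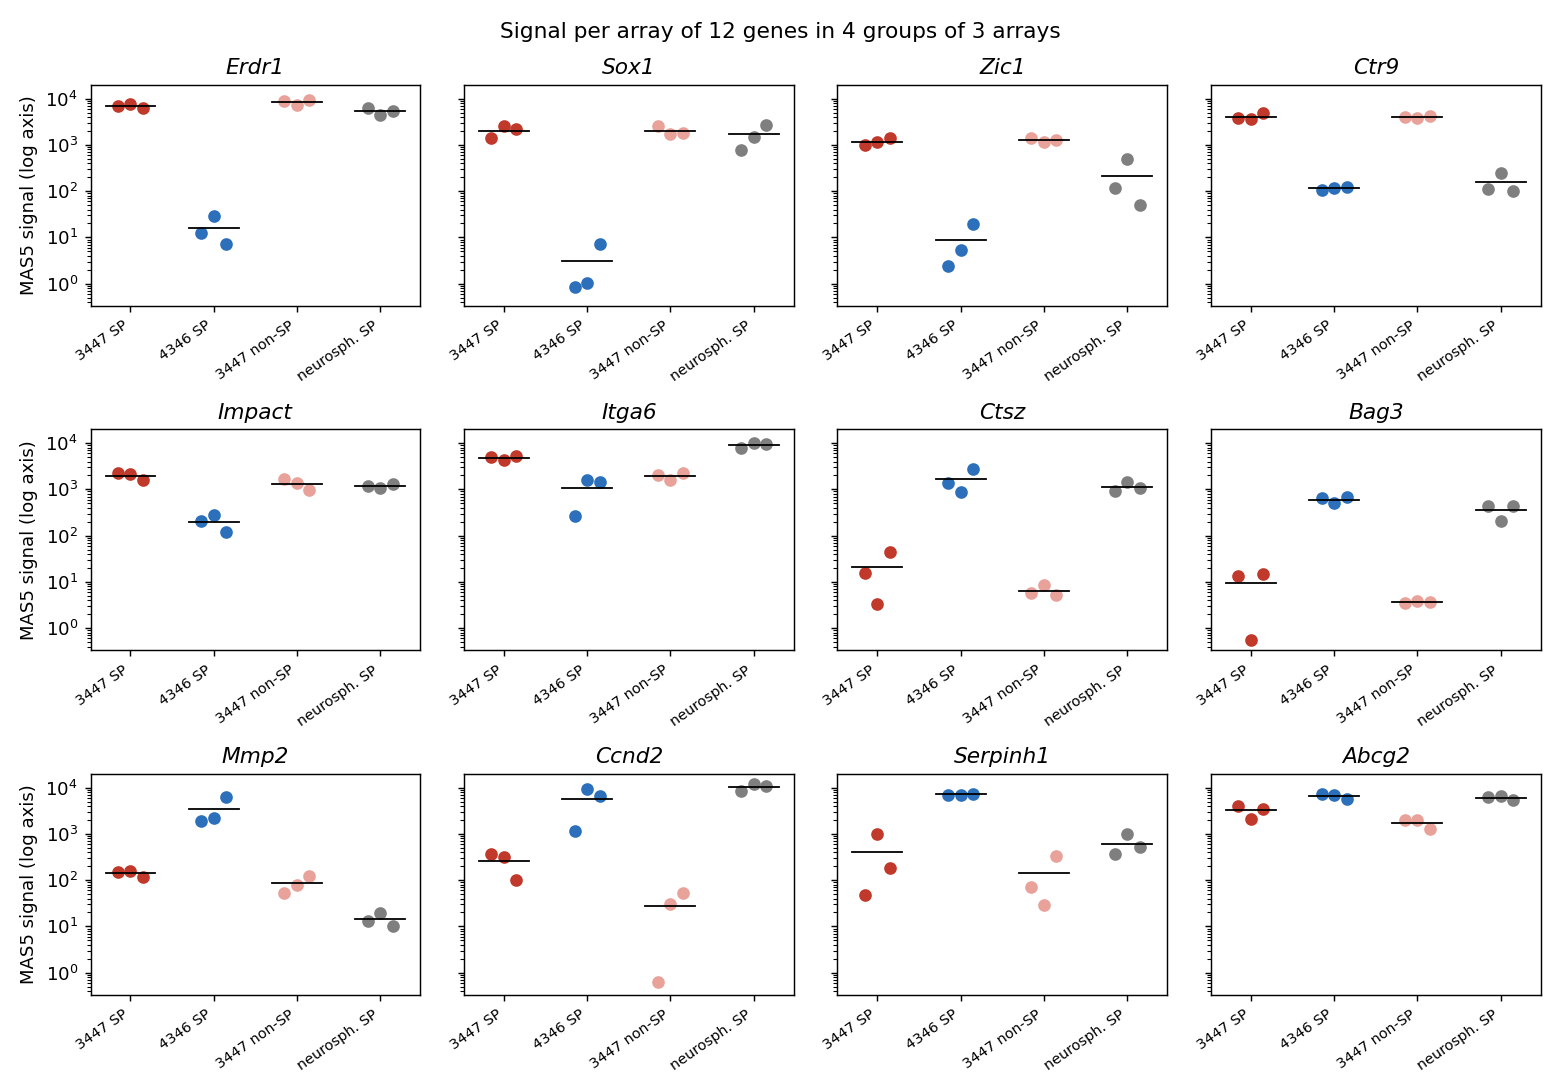
Deposited MAS5 signal (y axis, log scale) of 12 genes in 4 groups of 3 arrays (x axis); each point is an array and the line is the mean of 3. All 12 are called genes, and in every called gene the arrays of 3447 SP (red) and 4346 SP (blue) do not overlap. The non-SP arrays of line 3447 (pale red) lie with 3447 SP for Erdr1, Sox1, Zic1 and Ctr9.

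Adhesion and neuronal surface genes were also among the higher ones. Itga6, the laminin receptor subunit used to enrich stem-like glioma cells, had 4977, 4372 and 5224 in 3447 SP against 270.0, 1567 and 1431 in 4346 SP (2.52 ± 0.43, adjusted p = 0.00479), and its other probe set differed by 2.37. Non-SP cells of line 3447 had 1571 to 2228 and neurosphere SP cells 7862 to 9940.0. Itga6 was the only one of 22 tested integrins and laminins to pass, and the list's median was -0.53. That median was -0.12 with array weights, -0.22 on the deposited signals and -0.096 without 4346 SP array 3. Itga4, the fibronectin and VCAM1 receptor subunit, differed by -2.79 (adjusted p = 0.0613). Of 41 tested synaptic adhesion genes 2 were higher, Chl1 (1.96, adjusted p = 0.0490) and Negr1 (1.30, adjusted p = 0.0274), both members of the immunoglobulin superfamily. Their calls were lost in 11 and 4 of the single leave-outs, and the 3 other probe sets of Chl1 ranged from -0.40 to 1.497.

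Stmn3, a neuronal regulator of microtubules, had 3073, 1982 and 3512 against 111, 865 and 233 (3.16 ± 0.53, adjusted p = 0.00458). Rtn1, an endoplasmic reticulum protein of neurons, differed by 1.87, Lhfpl4, which anchors GABA receptors, by 1.92, and Camta1, a calcium-responsive factor of neurons, by 1.77. The other probe set of Lhfpl4 went the opposite way (-0.46), and the 3 others of Camta1 ranged from -0.37 to 2.58. Of 21 tested neuron and neuroblast markers, none was higher and 1 was lower, Celf4, an RNA-binding protein of excitatory neurons (-1.65, adjusted p = 0.0172). In that list 14 were above 0 and the median was 0.41. The neuroblast gene Dcx differed by 1.78 (adjusted p = 0.223). The RNA-binding proteins Rbm45 and Rbmx were higher by 2.63 (adjusted p = 0.00357) and 2.25 (adjusted p = 0.0421). Array 3 of 4346 SP held the lowest Rbmx value, 95.2 against 1127 and 636, and the Rbmx call was lost in 10 single leave-outs. The 3 other probe sets of Rbmx differed by 0.02 to 0.99, so its size rests on 1 probe set.

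Genes higher in line 4346 included several of the extracellular matrix and of collagen folding. Serpinh1, the chaperone that folds collagen in the endoplasmic reticulum, had 48.1, 995 and 187 in 3447 SP against 7002, 7001 and 7416 in 4346 SP. Mmp2, the gelatinase that cuts basement membrane collagen, had 154, 159.8 and 116 against 1939, 2257 and 6134. The lines did not overlap in either gene, and the 3447 SP values of Serpinh1 were spread much more widely than those of 4346 SP. The log2 differences were -5.04 ± 0.80 (adjusted p = 0.00341) and -4.44 ± 0.40 (adjusted p = 8.36e-06), and other probe sets gave -4.77 and -3.82. In neurosphere SP cells Mmp2 was at 10.03 to 19.5 and Serpinh1 at 362 to 969. Against these cells Mmp2 differed by 2.23 in 3447 SP and by 6.67 in 4346 SP, and Serpinh1 by -1.48 and 3.56.

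Of 22 tested matrix proteases and inhibitors, 3 were lower in line 3447 and none was higher, with a list median of -0.60. Beside Mmp2 these were Timp1, a secreted inhibitor of metalloproteases, at 58.6, 16.3 and 50.02 against 183, 369 and 1149.9, and Mmp14, the membrane-bound protease that activates Mmp2, at 3.77, 4.05 and 78.1 against 103, 97.3 and 244. Their log2 differences were -3.26 ± 0.56 (adjusted p = 0.00543) and -2.44 ± 0.55 (adjusted p = 0.0346). The Mmp14 call was lost in 6 single leave-outs. Of 25 tested collagen and mesenchymal matrix genes 19 were below 0 with a median of -0.82, and none passed. Col1a1, the main chain of type I collagen, came nearest, at 2734, 865 and 1931 against 7573, 7366 and 7658 (-2.15 ± 0.56, adjusted p = 0.0675). The medians of these lists rested partly on array 3 of 4346 SP, the one with the high 3' to 5' ratios. Without it they were -0.37 for the matrix genes and -0.32 for the proteases and inhibitors, and with array weights -0.25 and -0.33.

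Cnmd, a cartilage glycoprotein that blocks vessel growth, was lower in line 3447 (-2.15 ± 0.35, adjusted p = 0.00372), the only one of 16 tested cartilage matrix genes to pass. It had 920.4, 739 and 849.7 against 2560.3, 3454 and 6067, and 2.69 to 19.9 in neurosphere SP cells, so both tumour lines stood far above the neurospheres. Grem1, a secreted BMP antagonist, differed by -2.28 (adjusted p = 0.0113) and was the only one of 27 TGF-beta and BMP genes to pass. C1qtnf12, a secreted C1q and TNF related protein, differed by -3.93 (adjusted p = 0.000578), and Emilin1, an elastic fibre glycoprotein, by -1.88 (adjusted p = 0.0139).

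Fibroblast and meningeal markers moved with these matrix genes as a summed level. Over 18 such markers the summed signal was 9636 to 15377 in 3447 SP and 22834 to 26495 in 4346 SP, yet 9 lay above the array median on all arrays of the first and 6 on all arrays of the second. Of the 10 tested, 4 were above 0 and 6 below, and none passed. Most of the sum came from Col1a1, from Pdgfra, which oligodendrocyte progenitors also express, and from Ptgds, which oligodendrocytes also express. Single markers went both ways. On 4 of the 18 (Dcn, Tbx18, Foxc1 and Mfap5) every 3447 SP array lay above every 4346 SP array, on 2 (Col1a1 and Ptgds) every one lay below, and on 12 the lines overlapped. Over all tested genes the share without overlap on deposited signals was 19.2%. The fibroblast proteoglycan gene Dcn had 48.5, 51.3 and 60.3 in 3447 SP and 3.10, 19.7 and 14.1 in 4346 SP, and Dpt had 1.87 to 35.9 and 0.471 to 8.10. Dcn lay below the array median on 3447 SP arrays 1 and 3 and on every 4346 SP array, and Dpt on every array. Col3a1, a fibrillar collagen chain, had 509, 66.6 and 286 in 3447 SP and 783, 1073 and 276 in 4346 SP. Over 17 pericyte and smooth muscle markers the sum was 1406 to 2416 against 2561 to 5726, most of it from Cspg4, also a progenitor marker. The part of such cells in the matrix differences was not tested. In sorted bulk RNA a smaller share of cells with a gene and less RNA per cell cannot be told apart.

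A further group was lower in line 3447 than both in line 4346 and in neurospheres. Ctsz, a lysosomal cysteine protease, had 15.7, 3.33 and 44.1 in 3447 SP against 1372, 884 and 2728 in 4346 SP, and 938, 1454 and 1061 in neurosphere SP. Adgrl2, an adhesion receptor of the latrophilin family, had 117, 13.6 and 88.8 against 3463, 2356 and 994, and 6735 to 9377 in neurosphere SP. Bag3, a co-chaperone of HSP70 in selective autophagy, had 13.8, 0.550 and 14.5 against 640.5, 501 and 668, and 202 to 443 in neurosphere SP. In each of the 3 genes all arrays of 3447 SP lay below all of 4346 SP and of neurosphere SP, and the non-SP arrays of line 3447 were at 22.6 or less. The log2 differences between the lines were -5.70 ± 0.34 for Ctsz (adjusted p = 1.16e-07), -4.92 ± 0.44 for Adgrl2 (adjusted p = 7.24e-06) and -4.86 ± 0.38 for Bag3 (adjusted p = 1.55e-06). Against neurosphere SP cells Ctsz differed by -5.34 in line 3447 and 0.36 in line 4346, Bag3 by -4.11 and 0.75, and Adgrl2 by -6.85 and -1.94.

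Ppic, a cyclophilin that helps proteins fold, belonged to the same pattern, at 124, 53.9 and 104 against 2444, 2638 and 2869.9, with 1148 to 2439 in neurosphere SP (-4.82 ± 0.35, adjusted p = 6.26e-07). So did Ccnd2, the D-type cyclin that opens the cell cycle in neural progenitors, at 364, 312 and 102 against 1155, 9135 and 6678, with 8326 to 11968 in neurosphere SP. In 3447 SP both Ppic and Ccnd2 still lay above the array medians, which were 63.0, 43.2 and 89.3. All 6 other probe sets of Ccnd2 were lower in line 3447 too, by -4.41 to -3.00, beside -4.28 ± 0.69 (adjusted p = 0.00346) on the one used. Ccnd2 was the only one of 27 tested cell cycle entry genes to pass. Cdkn2b, which encodes the CDK4 inhibitor p15, differed by -2.95 (adjusted p = 0.0574).

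Gja1, the astrocytic gap junction protein connexin 43, had 436, 10.1 and 129 in 3447 SP against 2121, 2369 and 1039 in 4346 SP (-3.90 ± 0.75, adjusted p = 0.0132) and 3960.4 to 11188 in neurosphere SP. It was the only one of 24 tested astrocyte markers to pass, and the list's median was 0.10. Robo1, a receptor for Slit guidance cues, had 161, 72.7 and 47.4 against 1173, 1884 and 916 (-3.91 ± 0.64, adjusted p = 0.00389), the only one of 37 axon guidance genes to pass, while 2 other probe sets of it differed by -0.09 and 0.14. Arhgap42, a RhoA inhibitor of smooth muscle, differed by -4.42 ± 0.39 (adjusted p = 7.1e-06), and its other probe set by 0.85 in the opposite direction. Bex1, a small X-linked adaptor of neurotrophin signalling, had 65.2, 58.5 and 178 against 769, 1256 and 3870.5 (-3.98 ± 0.51, adjusted p = 0.000543).

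In other genes line 4346 had the highest mean signal of the 3 SP groups. Piwil4, a PIWI protein of piRNA silencing in the germline, had 31.9, 0.687 and 50.7 in 3447 SP against 417, 2399 and 2236 in 4346 SP, and 5.45 to 53.5 in neurosphere SP. Its difference was -5.41 ± 0.62 (adjusted p = 0.000155), and another probe set, with means of 19.8 and 21.2, gave -0.57. Crip1, a LIM domain protein, differed by -4.16, Snhg18, a small nucleolar RNA host gene, by -4.05, Gpx7, a glutathione peroxidase of the endoplasmic reticulum, by -3.93, Gng11, a G protein gamma subunit, by -3.85 and Mapkapk3, a kinase downstream of p38, by -3.81. Array 3 of 4346 SP held the highest value in all 5, for example 2285 for Crip1 against 359 and 181. For Gng11 the neurosphere SP arrays, at 147 to 819.9, overlapped line 4346, and for the other 4 they lay below it. Lgals3, galectin 3, varied widely, at 32.9, 104 and 1414 in 4346 SP against 0.963 to 12.8 in 3447 SP (-3.54 ± 0.85, adjusted p = 0.0489), and lost its call in 10 single leave-outs; neurosphere SP cells, at 1.26 to 74.5, overlapped line 4346.

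Membrane and signalling genes chosen after their values were seen add to this side. Cav1, the coat protein of caveolae, had 523, 398 and 341 in 3447 SP against 3979, 3874 and 2556 in 4346 SP (-3.01 ± 0.32, adjusted p = 5.12e-05). Gpnmb, a melanosomal and lysosomal glycoprotein often raised in glioma, had 388, 346 and 251 against 2022, 3213 and 2676 (-2.99 ± 0.41, adjusted p = 0.000893). Adcy7, an adenylyl cyclase, differed by -3.34 and Anxa4, a calcium-dependent membrane-binding annexin, by -2.01. In all 4 genes both lines lay above neurosphere SP cells, for Cav1 at 91.2 to 216.

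The dye pump Abcg2 itself differed between the side populations. It had 4099, 2142 and 3416 in 3447 SP and 7302, 6859 and 5703 in 4346 SP, and every array of line 4346 lay above every array of line 3447. The log2 difference was -1.04 ± 0.23 (adjusted p = 0.0276), or 2.06-fold. Neurosphere SP cells had 5259 to 6512, overlapping line 4346, and the non-SP cells of line 3447 had 1261 to 1946. The call was lost without 3447 SP array 2 or 3 or 4346 SP array 1 or 2, with adjusted p up to 0.104, and with the 6 arrays alone. Abcb1b, a further dye exporter, differed by -1.06 ± 0.33 (adjusted p = 0.127), and its second probe set by 0.25. Abca1, the cholesterol exporter, was higher in line 3447, at 490.3, 705 and 395 against 44.6, 149 and 128 (2.07 ± 0.37, adjusted p = 0.00728), though 2 other probe sets with low signal differed by 0.33 and 0.38. The remaining 25 of 27 tested ABC transporters did not pass, and the list's median was 0.03.

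The stem cell genes Sox2, Nes and Prom1 did not pass the test, nor did Egfr. Sox2, the pluripotency and neural stem cell factor, had 6006, 7326 and 5815 against 6374, 6834 and 5656, a log2 difference of 0.10 ± 0.11. Nes, the intermediate filament of neural progenitors, differed by -0.06 ± 0.24. Prom1 (CD133) and the Egfr probe set used were at signals of 34.8 or less in both lines, and on that probe set neurosphere SP cells had 2689 to 7145. Over all 7 Egfr probe sets the highest signal was 91.1, on 3447 SP array 3, and 31.3 on the other 5 arrays. The adjusted p was 0.699 for Sox2, 0.921 for Nes, 0.976 for Prom1 and 0.832 for Egfr. These small differences changed sign under some settings, given with the other limits. Of 21 neural stem and radial glia genes, Sox1 was the only one to pass.

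Along the oligodendrocyte lineage, Gpr17, a receptor of committed progenitors, was lower in line 3447, at 76.1, 89.5 and 251 against 467, 362 and 496 (-1.81 ± 0.42, adjusted p = 0.0374). It was the only one of 20 tested progenitor markers to pass; 16 of the 20 were below 0, with a median of -0.41 that was -0.099 without 3447 SP array 2. Sox10, the lineage's master factor, had 2602, 3607 and 3159.8 against 5289, 3433 and 8730.1 (-0.76, adjusted p = 0.286), and 0.819 to 1.67 in neurosphere SP. Vcan, a matrix proteoglycan of progenitors, went the other way by 1.12 (adjusted p = 0.126). None of 14 myelin genes passed.

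The few ion channels and transmitter receptors that were called were higher in line 4346, as were 142 of all 197 called genes. Cacna2d1, an auxiliary calcium channel subunit, had 248, 71.1 and 208 against 1406, 1287 and 1360.0 (-3.03 ± 0.42, adjusted p = 0.00104). Kcnt2, a sodium-activated potassium channel, had 64.6, 35.3 and 36.2 against 133, 511 and 143 (-2.19, adjusted p = 0.0490), a call lost in 13 of 15 single leave-outs. These were the 2 called of 38 tested ion channels. Of 21 glutamate and GABA receptor genes 2 passed, the GABA-A subunits Gabra3 (-3.06, adjusted p = 0.0186) and Gabrb2 (-2.24, adjusted p = 0.0325). The other probe set of Gabra3 differed by -0.05, and the 4 others of Gabrb2 ranged from -2.54 to 0.19. The median was -0.24 for the ion channels and -0.08 for the receptors, beside -0.04 for all genes, of which 1.65% were called.

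**Figure D3:**
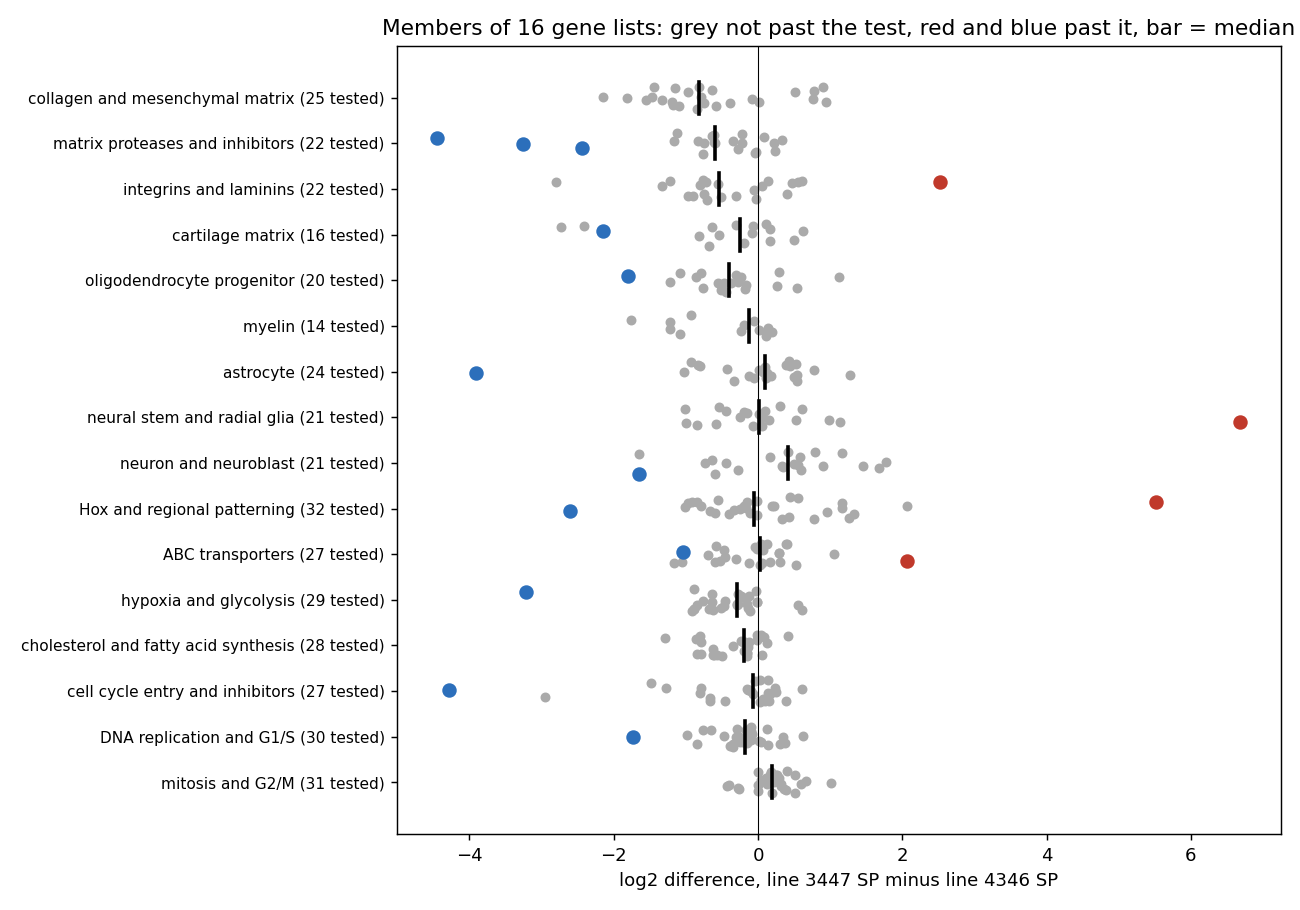
Log2 difference (3447 SP minus 4346 SP, x axis) of each tested member of 16 gene lists (rows); red and blue points passed the test, grey points did not, and the black bar is the list's median. Most lists hold 1 called gene or none, and the matrix rows have the lowest medians shown, -0.82 and -0.60.

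Metabolic and stress lists held few calls. Adm, the vasodilator peptide adrenomedullin that hypoxia induces, had 98.1, 330.4 and 366 against 3598, 1721 and 1627 (-3.21 ± 0.51, adjusted p = 0.00322), and 7319 to 8716 in neurosphere SP. It was the only one of 29 hypoxia and glycolysis genes to pass, although 27 were below 0 with a median of -0.30, which was -0.17 without 3447 SP array 1 and -0.78 with arrays centred on their medians. Among all tested genes 45.9% were above 0. Slc7a3, a transporter of cationic amino acids, was the only one of 25 genes of the ATF4 stress response to pass (-2.30, adjusted p = 0.00560), and Mgst2, a microsomal glutathione transferase, the only one of 25 NRF2 and glutathione genes (-1.94, adjusted p = 0.0287). None of 28 cholesterol and fatty acid synthesis genes passed, with 23 below 0. None of 31 mitosis genes passed, with 24 above 0 and a median of 0.20 that became -0.19 with arrays centred on their medians. Of 30 replication genes only Pole, the leading strand polymerase, passed (-1.74, adjusted p = 0.0139). In the interferon list Irgm1, an interferon-induced GTPase, was higher (1.32, adjusted p = 0.0132) and Ifit2, an interferon-induced RNA-binding protein, lower (-1.38, adjusted p = 0.0489) among 25 tested. Laptm5, a lysosomal protein of blood cells, was the only microglial marker of 4 tested to pass (-1.92, adjusted p = 0.0413), at 17.0 to 58.2 against 63.4 to 317, and its 4 other probe sets ranged from -0.38 to -0.05. Cd68, a lysosomal protein of macrophages, had 92.4, 104 and 129 in 3447 SP against 124, 359 and 315 in 4346 SP (-1.29, adjusted p = 0.235). The summed signal of the 22 microglial and macrophage markers was 298 to 868 in 3447 SP and 438 to 986 in 4346 SP. The lines did not overlap for 2 of the 22, Laptm5 and C1qb, both lower in 3447 SP. Over all tested genes the share without overlap on deposited signals was 19.2%. C1qb, at 1.15 to 5.67 against 10.5 to 16.3, lay below the array median on every array. The part of such cells in the Laptm5 difference was not tested.

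Smarcb1, the core SWI/SNF subunit whose loss drives rhabdoid tumours, was lower in 3447 SP on 1 probe set, at 403, 925 and 604 against 2136, 2084 and 2909.8 (-1.93 ± 0.33, adjusted p = 0.00479). The non-SP cells of the same line had 1677 to 2539.6. The other probe sets of Smarcb1 differed by -0.42 and 0.40, the latter with means of 956 and 714.

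Genes of some chromosomes shifted together. Genes on chromosome 13 had a median log2 difference of 0.35, and 349 of 439 (79.5%) were above 0, against 5469 of all 11908. Genes on chromosome 5 had a median of -0.27, with 158 of 763 (20.7%) above 0, and those on chromosome 9 a median of -0.22, with 208 of 671 (31.0%) above 0. Calls ran the same way, with 8 genes higher and 1 lower on chromosome 13, 1 and 18 on chromosome 5, and 1 and 13 on chromosome 9. When arrays were centred on their medians these medians became -0.00486, -0.61 and -0.55, beside -0.38 for all genes. Chromosome 16 had a median of -0.14 in the main fit, with 119 of 381 (31.2%) above 0 and 0 genes higher and 9 lower. It was not read array by array.

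The shift was also read array by array. The reference was the mean of all neurosphere arrays, SP and non-SP together. Relative to it, the median of chromosome 13 genes was 0.15, 0.25 and 0.15 in 3447 SP and -0.10, -0.10 and -0.19 in 4346 SP. In the non-SP cells of line 3447 that median was 0.20, 0.13 and 0.24. For chromosome 5 it was -0.16, 0.02 and -0.07 in 3447 SP against 0.30, 0.12 and 0.16 in 4346 SP. The lines did not overlap on chromosomes 5, 8, 9 and 13, and each exact two-sided permutation test gave p = 0.1, the smallest that 3 arrays against 3 allow. On chromosomes 12 and 15 the arrays overlapped, with p = 0.2 and p = 0.3 by the same exact test. These chromosomes were picked after their medians were seen.

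The X chromosome held 13 genes higher and 11 lower and a median of 0.00, but the calls were not spread evenly along it. Tested genes were taken in order in runs of 25, with the last run of a chromosome larger. In runs 1 to 11 the median was -0.11, with 1 gene higher and 9 lower of 275. In runs 12 to 16, from Nap1l3 to Erdr1, it was 0.45, with 12 higher and 2 lower of 133, and 109 (82.0%) were above 0. The boundary was drawn after the values were seen. Relative to the mean of all neurosphere arrays the distal runs stood at 0.96, 0.88 and 0.71 in 3447 SP and at 0.39, 0.48 and 0.35 in 4346 SP. They stood at 0.91, 1.00 and 0.95 in the non-SP cells of line 3447, so both lines were above neurospheres and line 3447 more so. With arrays centred on their medians the distal runs stood at 0.09 and the proximal ones at -0.52, beside -0.38 for all genes.

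The last X run, 33 genes from Eif1ax to Erdr1, had the highest median of all 465 runs, 0.61, with 7 genes higher and 0 lower. Apart from Erdr1 and a predicted gene these changed little but evenly. Hccs, which attaches haem to cytochrome c, had 8458, 8187 and 7119 against 5556, 5809 and 3566 (0.78 ± 0.17, adjusted p = 0.0256). Pdha1, a subunit of pyruvate dehydrogenase, had 7304, 7652 and 6583 against 5145, 5278 and 3504 (0.74 ± 0.16, adjusted p = 0.0222). Bclaf3 differed by 1.03, Syap1 by 0.82 (its other probe set by -0.30) and Tmsb4x, the actin-binding thymosin beta 4, by 0.81. In none of these 5 did the lines overlap, but all 5 lost their call with arrays centred on their medians, with differences of 0.26 to 0.64. The next highest run, of 25 genes on chromosome 13 from Zscan26 to E2f3, had a median of 0.59 and no called gene. The lowest were a run on chromosome 5 from Agbl5 to Babam2 (-0.59, with Emilin1 called lower) and a run on chromosome 8 from Vac14 to Gabarapl2 (-0.53, with none called).

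**Figure D4:**
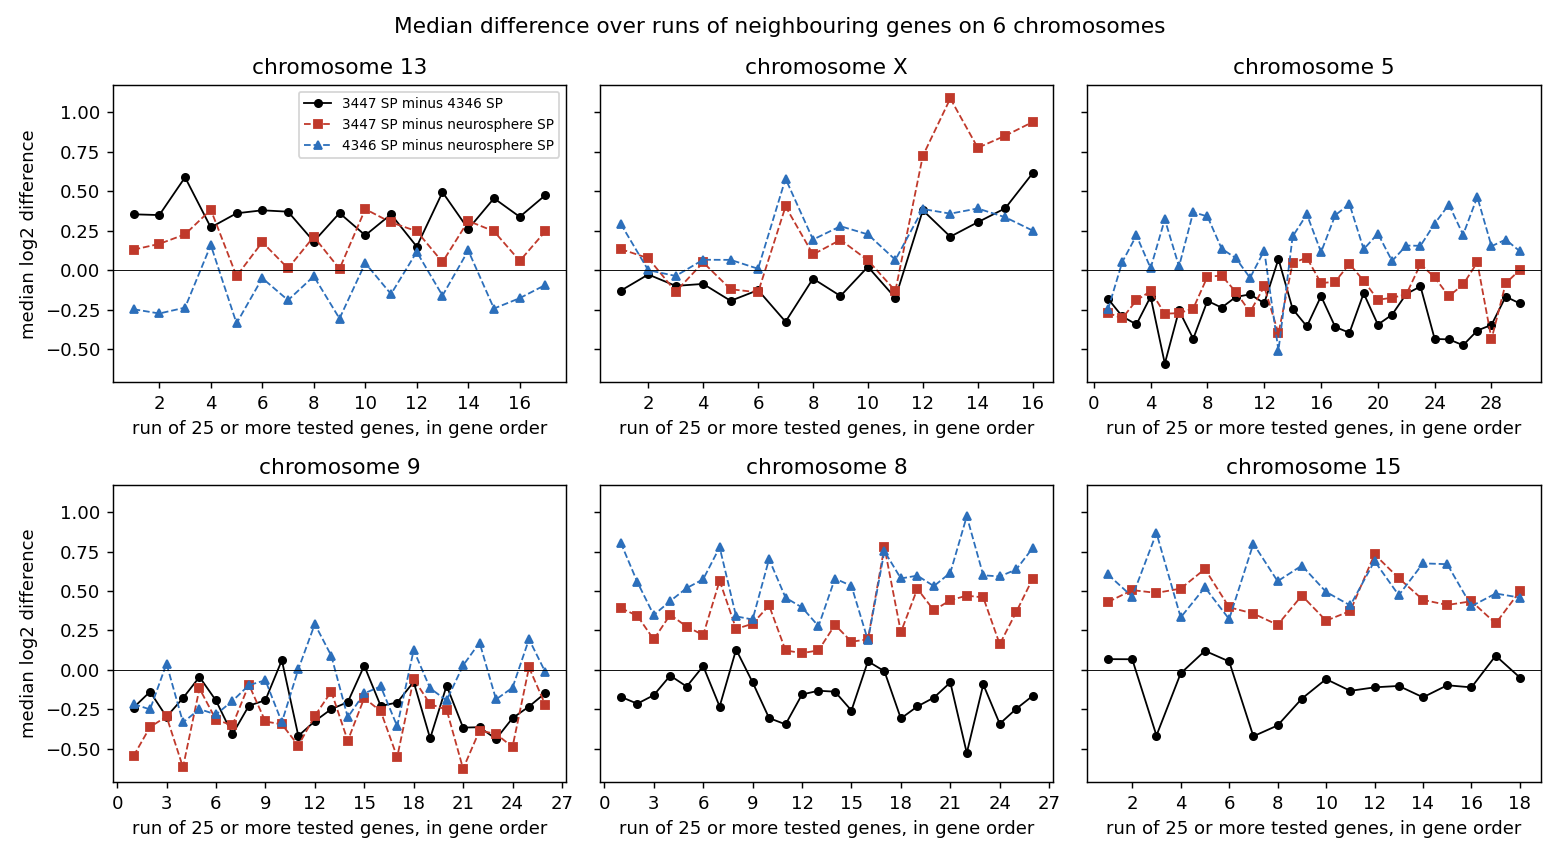
Median log2 difference (y axis) over runs of neighbouring tested genes in chromosome order (x axis, run number) on 6 chromosomes; black is 3447 SP minus 4346 SP, and the dashed lines are each line's SP minus neurosphere SP (red 3447, blue 4346). The black line stays above 0 along all of chromosome 13, below 0 in all but 1 run of chromosome 5, and on the X chromosome runs 12 to 16 lie above 0.2.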

How the data were processed

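The authors deposited MAS5 intensity values, linear and not log-transformed, from Affymetrix Expression Console, per the submitters' processing notes; the trimmed mean was 500.0 on each array. Per the labels, RNA from sorted cells was amplified with a NuGEN Ovation Pico kit. Array batches are not given in the sources used here. Signals are quoted as deposited. For tests they were quantile normalized over 15 arrays, and log2 of the value plus 16 was taken. Probe sets above their array's median on at least 3 arrays were kept, and the one with the highest mean stood for its gene, giving 11908 of 18193 genes. Names came from the platform annotation, which can be old; 34945 probe sets had 1 symbol, 932 several and 9160 none, and 34741 matched RefSeq.

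The test was limma 3.58.1 (R 4.3.3), fitted to the 15 arrays as 5 groups (10 residual degrees of freedom) with a trend of spread on level, with two-sided Benjamini-Hochberg adjustment over all genes at 0.05. The number of arrays limits the precision. The fit was also run on simulated data with independent noise. Those data held no differences in array quality or normalization, so the run says nothing about either. Named genes were the 20 highest and 20 lowest called genes whose arrays did not overlap, fixed genes for the dye pumps and stem cells, called or smallest-p members of 49 lists (1476 entries, 1041 tested), and called genes in the most extreme chromosome runs. Predicted genes were counted and not named, and Abcb1a and Trp53 were not among the genes tested. The comparison, lists and rules were chosen with earlier results of these data known. Alternatives covered scaling, the offset, filters, probe set choice, the fit, the replicate number as a block and leaving out arrays. Equal replicate numbers did not pair the arrays of the 2 lines (correlations of deviations -0.13, -0.02 and -0.11). SP and non-SP arrays of equal number may come from the same culture, and the main fit treated them as independent. On one Xist probe set, neurosphere SP array 3 read 6748 and non-SP array 3 read 7256. The other neurosphere arrays read 10.5 or less. Pairing of SP with non-SP arrays was not tested.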

Additional observations from a re-analysis of the deposited data

How the results depend on the processing

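Of the 197 genes called, 74 kept their call in each of 15 fits that left out 1 array and 40 in all 27 alternatives in which they were tested; these include Erdr1, Sox1, Ctr9, Impact, Ctsz, Bag3, Ppic and Mmp2. Without 1 array the count ran from 107 to 308, with 24 to 114 higher and 79 to 194 lower, and the share of genes with no overlap from 19.6% to 33.2%. That share was 27.9% to 33.2% where the array left out was of 3447 SP or 4346 SP, so that fewer arrays were compared. It was 19.6% to 19.7% where the array was of another group. Without array 3 of both lines 67 were called, 20 higher and 47 lower, with 42.4% not overlapping. Centring on array medians gave 367 (23 higher, 344 lower), an offset of 1 gave 125 (80 lower), the 6 arrays alone 111 (25 higher, 86 lower) and array weights 98 higher. The replicate block gave 319 calls, 115 higher and 204 lower, 189 of them shared with the 197, but the numbers do not pair the arrays of the 2 lines. The cause of these changes was not tested. Among the values given here these changed sign. With median centring 2 of the 197 called genes did, Brd9 at -0.00808 and Cd24a at -0.064, while Sox2 stood at -0.38, Prom1 at -0.057, chromosome 12 at -0.16, chromosome 13 at -0.00486 and the mitosis list at -0.19. On the deposited signals the median of all genes stood at 0.010, against -0.04. Over the single leave-outs Prom1 ran from -0.34 (without 4346 SP array 1) to 0.27, Egfr from -0.051 to 0.64 (the former without 4346 SP array 1) and Nes from -0.20 to 0.054 (the latter without 3447 SP array 3). Without array 3 of both lines Nes stood at 0.061 and the mitosis list at -0.022, and over the single leave-outs that list ran from 0.031 to 0.57. MAS5 signals near the bottom of the range carry no order.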

Other observations

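Among probe sets that the annotation does not tie to 1 gene, differences between the lines were also found with limma over all probe sets past the filter. Of 3479 with no symbol, 25 were higher and 10 lower in 3447 SP, and of 578 with several symbols 8 were higher and 3 lower. Among the 22196 with 1 symbol, 81 were higher and 189 lower.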
